A study of Mus musculus with 10 samples.

Results

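Retinoic acid is made inside cells from vitamin A and acts on gene transcription, and 8 genes of its synthesis, binding and breakdown were examined in mouse brain at the site of a cortical injury. The genes were Stra6, Rdh10, Aldh1a1, Aldh1a2, Aldh1a3, Crabp1, Crabp2 and Cyp26b1, a set grouped by function and chosen with earlier results of these data known. Each was read from the brightest array row that names it alone, and all 8 were found among the 30142 genes tested. Of these 8 genes, Aldh1a2 and Crabp2 were called higher at the injury site and none was called lower. Both calls were lost without some single arrays. Cyp26b1 had a higher mean that did not pass the test. Among 48 further genes of the pathway, of which 41 were measured, the retinoid receptor gene Rxrg rose and the coactivator gene Ncoa2 fell. The call of Ncoa2 was likewise lost without some single arrays.

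The tissue came from adult mice of either sex according to the labels, aged 8 to 12 weeks, which had received a 2 mm controlled cortical impact, a piston blow to the exposed cortex, on one hemisphere. Ipsilateral samples (5 arrays) were taken at the impact site 7 days later, and contralateral samples (5 arrays) from the matching region of the opposite hemisphere. All mice therefore carried the injury, and neither a sham-operated nor an uninjured group was part of the comparison. The strain was not given in the sources used here, nor whether the samples of a side shared mice with those of the other. The arrays were labelled as biological replicates, and no mouse was named for any of them.

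Retinol travels in blood bound to a carrier protein, enters cells through the membrane receptor STRA6, and is oxidised to retinaldehyde by RDH10 and related enzymes. The ALDH1A enzymes then oxidise retinaldehyde irreversibly to retinoic acid. Inside the cell, CRABP2 hands retinoic acid to nuclear receptors, CRABP1 holds it in the cytoplasm, and CYP26 enzymes break it down. The receptors, RAR paired with RXR, bind retinoic acid response elements, which are repeats of a short hexamer. In the adult brain the meninges are a known site of Aldh1a2 expression, and Rxrg and Rarb are known from the striatum.

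The following sequences show the response element that the receptors read and the promoters of genes described later. Windows of 250 bases before to 50 bases after annotated starts were taken from RefSeq (GRCm38.p6). Of the 8 genes, 5 had such a window (Stra6, Aldh1a1, Aldh1a2, Crabp1 and Cyp26b1). In the first 2 stretches the capitals mark a retinoic acid response element of the DR5 type, a pair of receptor hexamers 5 bases apart. In Rarb (chr14:16575480-16575559, minus strand) it begins 53 bases before the start, and in Cyp26a1 (chr19:37697728-37697807, plus strand) 32 bases before it. In Rxrg (chr1:167618147-167618226, plus strand) the capitals mark a single hexamer AGGTCA, in Aldh1a2 (chr9:71215709-71215788, plus strand) the letters CCAAT and in Cyp26b1 (chr6:84593900-84593979, minus strand) the letters TATAAA. Each stretch is 80 bases, upstream of the start, 5′ to 3′ in the direction of the gene.
Rarb: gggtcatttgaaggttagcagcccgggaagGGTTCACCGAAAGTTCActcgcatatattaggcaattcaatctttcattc
Cyp26a1: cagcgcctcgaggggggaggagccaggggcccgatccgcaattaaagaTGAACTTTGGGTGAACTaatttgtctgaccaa
Rxrg: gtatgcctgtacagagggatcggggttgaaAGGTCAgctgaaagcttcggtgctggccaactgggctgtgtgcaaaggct
Aldh1a2: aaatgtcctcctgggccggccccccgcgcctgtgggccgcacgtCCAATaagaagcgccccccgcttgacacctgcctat
Cyp26b1: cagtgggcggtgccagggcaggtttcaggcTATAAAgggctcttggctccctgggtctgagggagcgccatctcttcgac

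Both strands of all 32851 windows in the table were searched. The DR5 element was found in 32 of them (0.0974%), and among the retinoid genes listed here in Rarb and Cyp26a1 alone. The related DR2 type, with 2 bases between the hexamers, was found in 88 windows (0.268%), none of them of a listed retinoid gene. Exact repeats of AGGTCA, which are included in these types, were found in 3 windows at either spacing (0.00913%). The single hexamer AGGTCA stood in 16.3% of windows, in 0 of the 9 windows of the 5 genes, and in windows of 12 other pathway genes, Rxrg, Rxra and Rara among them. TATAAA stood in 13.6% and CCAAT in 37.4% of windows. A match is a description of letters and not evidence of binding.

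Signals were log2 values as deposited, with array medians of 4.79 to 4.84 ipsilaterally and 4.71 to 4.77 contralaterally over all rows. Rows near or below these medians were not shown to be above background. Of all genes tested, 5.55% passed at an adjusted p under 0.05 (limma, Benjamini-Hochberg over all genes), 1.22% as higher (369 genes) and 4.33% as lower (1305 genes) at the impact site, and the median log2 difference was 0.02. After centring of the arrays on a common median, 232 genes were called higher and 2623 lower. Neuronal tissue was measured on all arrays, with Snap25, a synaptic vesicle fusion gene, between 17.76 and 18.50. Some arrays stood apart in ways that side does not explain. Ttr, the retinol carrier partner transthyretin made by choroid plexus, stood at 12.66 to 16.54 on the arrays numbered 2 and 4 of both sides and at 5.83 to 7.55 on the other 6. Ipsilateral replicate 1 held 11.34 of Th, the dopamine synthesis gene, against 5.14 to 5.45 on the other 9 arrays. It held 9.10 of Eomes against 4.34 to 4.77 on those 9, and 12.30 of Cdhr1. For Cdhr1 the other ipsilateral arrays stood at 6.42 to 7.31 and the contralateral ones at 5.29 to 6.34. Eomes and Cdhr1 are known from the olfactory bulb and were chosen after values were seen. The microglia and macrophage list (8 of 8 measured, 0 called, no gene below the array medians) had means of 8.88 to 11.62 ipsilaterally and 8.34 to 9.36 contralaterally.

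For uptake and the first oxidation, no difference between sides passed the test. Stra6, the retinol receptor, stood at 5.76, 6.19, 5.76, 5.96 and 6.05 on ipsilateral replicates 1 to 5 and at 5.63, 6.49, 5.72, 5.69 and 5.76 on the contralateral ones. The highest array of each side was number 2, and the groups overlapped. Its log2 difference was 0.09 ± 0.16 (SE, 95% interval -0.27 to 0.44, adjusted p = 0.819 in limma). Stra6 peaked on the same arrays as choroid plexus genes. The mean signal of the 8 listed (8 measured, 0 called) ran from 5.55 to 7.75 ipsilaterally and 5.32 to 8.39 contralaterally, highest on array 2 of each side. Folr1 was the 1 gene whose mean lay below every array's median. The full order of arrays differed on both sides. Contralateral replicate 4 was next highest in the choroid plexus mean (6.16) but next lowest in Stra6 (5.69). Without the arrays numbered 2 and 4 the difference of Stra6 was 0.15 (adjusted p = 0.555). In bulk tissue a change in the number of cells of a type and a change in RNA per cell cannot be told apart, and the part of choroid plexus in these values was not tested.

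Rdh10, the retinol dehydrogenase of the first oxidation, varied little. It stood at 7.00, 7.17, 7.00, 7.16 and 7.30 ipsilaterally and at 7.16, 7.39, 7.01, 7.05 and 7.07 contralaterally. The log2 difference was -0.01 ± 0.09, with an interval of -0.20 to 0.18 (adjusted p = 0.967 in limma). Contralateral replicate 2 was the highest and the groups overlapped, and as a ratio of sides the interval ran from 0.868 to 1.14. The sign turned without ipsilateral replicate 1 or 3, without contralateral replicate 2, with array weights and without the arrays numbered 2 and 4.

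**Figure D1:**
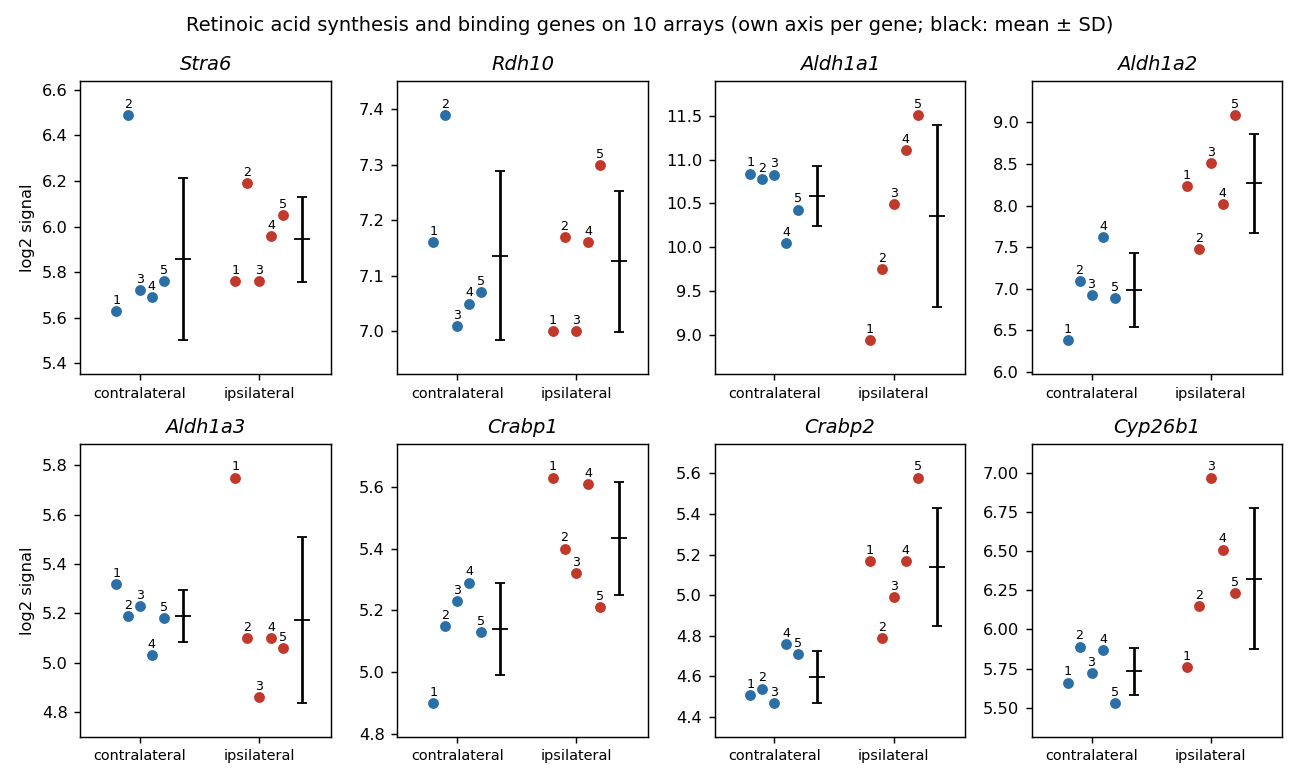
Log2 signal of the 8 genes on each array, contralateral in blue and ipsilateral in red, with replicate numbers beside the points and the mean ± SD of 5 arrays in black (each gene has its own axis). The 5 ipsilateral values of Crabp2 lie above all contralateral values, and 4 of the 5 do for Aldh1a2, Crabp1 and Cyp26b1.

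Of the 3 retinaldehyde dehydrogenases, Aldh1a2 rose and the other two did not pass. This enzyme makes retinoic acid in the embryo and in the meninges. It stood at 8.23, 7.48, 8.51, 8.02 and 9.09 on ipsilateral replicates 1 to 5 and at 6.38, 7.09, 6.92, 7.62 and 6.89 on the contralateral ones. Ipsilateral replicate 2 lay below contralateral replicate 4, and the other 4 ipsilateral arrays lay above all contralateral arrays. The means were 8.27 ± 0.60 and 6.98 ± 0.45 (SD, n = 5 each), a 2.44-fold difference (95% interval 1.56 to 3.81). On the log2 scale this was 1.29 ± 0.29 (SE, adjusted p = 0.0287 in limma).

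Leaving out single arrays could end the call of Aldh1a2. It was lost without ipsilateral replicate 3 or 5 or contralateral replicate 1, 2, 3 or 5 (adjusted p = 0.0522 to 0.0747 in limma), while the difference stayed between 1.08 and 1.48 with any single array left out. Taken alone, the difference had an exact two-sided permutation p of 0.0159 over 252 splits of the arrays, unadjusted. Without ipsilateral replicate 1 it was 1.30 (adjusted p = 0.0399). Without the arrays numbered 2 and 4 it was 1.88 (adjusted p = 0.0263).

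Genes of meninges and fibroblasts also had higher means at the impact site. All 15 listed were measured, and all 15 had positive differences with a median of 0.80. The proteoglycan genes Dcn (2.88) and Fmod (1.54) and the collagen chain Col1a1 (0.80) rose, 3 of the 15, where 1.22% of all genes were called higher. Positive differences were not particular to this list, as all 8 microglia and macrophage genes had them, with a median of 1.22 and 0 called. The mean signal of the meningeal and fibroblast list ran from 7.24 to 8.62 ipsilaterally and from 6.34 to 7.16 contralaterally. Foxd1 was the 1 gene of the list with a contralateral mean (4.68) below every array's median. On the contralateral side the 5 arrays fell in the same order for Aldh1a2 and for this list, with replicate 1 lowest and replicate 4 highest. Ipsilaterally the orders differed: replicate 5 was highest in both, but replicate 1 was lowest in the list (7.24) and stood at 8.23 in Aldh1a2, above replicates 2 and 4. The part of these cells in the rise of Aldh1a2 was not tested.

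Aldh1a1, a retinaldehyde dehydrogenase also known from midbrain dopamine neurons, differed among the ipsilateral arrays more than between sides. It stood at 8.94, 9.75, 10.49, 11.11 and 11.51 ipsilaterally and at 10.84, 10.78, 10.83, 10.05 and 10.43 contralaterally. Thus 2 ipsilateral arrays lay below and 2 above every contralateral array. The SD was 1.04 against 0.34, a ratio of 3.01, while 63.6% of all genes varied more ipsilaterally. The mean difference was -0.23 ± 0.42 (interval -1.16 to 0.71, adjusted p = 0.819 in limma), and it was 0.13 without ipsilateral replicate 1. The ipsilateral arrays fell in the same order for Aldh1a1 and for the mean of 8 astrocyte genes (8 measured, 1 called higher, Aqp4). That mean ran from 10.12 to 11.11 ipsilaterally and from 9.94 to 10.31 contralaterally with no gene below the array medians. Of these astrocyte genes 6 had positive differences, while Aldh1l1 (-0.36) and Slc1a2 (-0.15) had negative ones. The contralateral arrays did not share the order of the astrocyte mean. The mean of the oligodendrocyte list (5 of 6 genes measured, 0 called) shared the order of Aldh1a1 on neither side. The part of either cell type was not tested.

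Aldh1a3, the third enzyme of this step, had signal near the array medians and no difference that passed. It stood at 5.75, 5.10, 4.86, 5.10 and 5.06 ipsilaterally and at 5.32, 5.19, 5.23, 5.03 and 5.18 contralaterally. Ipsilateral replicate 1, the array with high Th, was the highest of all 10. The log2 difference was -0.02 ± 0.14 (interval -0.33 to 0.30, adjusted p = 0.968 in limma), and -0.16 without that array (adjusted p = 0.254). Leaving out any other ipsilateral array or contralateral replicate 1 turned the sign, with values up to 0.06.

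The 2 cellular binding proteins both had higher means at the impact site, and Crabp2 passed the test. Crabp2, which passes retinoic acid to its nuclear receptor, stood at 5.17, 4.79, 4.99, 5.17 and 5.58 ipsilaterally and at 4.51, 4.54, 4.47, 4.76 and 4.71 contralaterally. The groups did not overlap, with ipsilateral replicate 2 and contralateral replicate 4 closest to each other. Over all genes, 2.04% had every ipsilateral array above every contralateral one. The log2 difference was 0.54 ± 0.13 (interval 0.25 to 0.83, adjusted p = 0.0377 in limma), or 1.46-fold, and the exact two-sided permutation p was 0.00794, the smallest that 252 splits can give.

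The contralateral mean of Crabp2, 4.60, lay below every array's median, so how large the rise was cannot be read from these values. The call ended with quantile scaling (adjusted p = 0.0803) and median scaling (0.0579), with every row of the table tested (0.0564), without ipsilateral replicate 1 or 4 or contralateral replicate 1, 2, 3 or 5 (0.0532 to 0.101), and without the arrays numbered 2 and 4 (0.113), while the difference stayed between 0.43 and 0.68 in all alternatives tried. It was not tested where the dimmer 50% of genes were left out. Ipsilateral replicate 5, highest in Crabp2, was also highest in the meningeal and fibroblast list (8.62), the endothelial list (9.31), the pericyte and smooth muscle list (8.85) and the astrocyte list (11.11). Crabp2 and the meningeal and fibroblast list did not share an order of arrays on either side, and the part of these cells in the rise of Crabp2 was not tested.

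Crabp1, which retains retinoic acid in the cytoplasm, stood at 5.63, 5.40, 5.32, 5.61 and 5.21 ipsilaterally and at 4.90, 5.15, 5.23, 5.29 and 5.13 contralaterally. The groups overlapped only through ipsilateral replicate 5. The log2 difference was 0.29 ± 0.10 (interval 0.07 to 0.52) and did not pass over all genes (adjusted p = 0.123 in limma). Taken alone, the difference had an exact two-sided permutation p of 0.0238, unadjusted. Without ipsilateral replicate 1 it was 0.25 (adjusted p = 0.177). With median scaling the difference was 0.22 (adjusted p = 0.219 in limma) and with quantile scaling 0.21 (adjusted p = 0.289). The signal of Crabp1 was near the array medians, with a contralateral mean of 5.14.

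Cyp26b1, the main retinoic acid hydroxylase of the brain, was read at 5.76, 6.15, 6.97, 6.51 and 6.23 ipsilaterally and at 5.66, 5.89, 5.72, 5.87 and 5.53 contralaterally. Only ipsilateral replicate 1 lay within the contralateral range. The log2 difference was 0.59 ± 0.19 (interval 0.17 to 1.01, 1.51-fold), which did not pass over all genes (adjusted p = 0.101 in limma, exact two-sided permutation p = 0.0238, unadjusted). Without ipsilateral replicate 1, the array with high Th and Eomes, the difference was 0.73 and passed (adjusted p = 0.0236). In the other alternatives of the fit over all genes it did not pass, with adjusted p from 0.0512 with array weights to 0.311 without the arrays numbered 2 and 4.

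**Figure D2:**
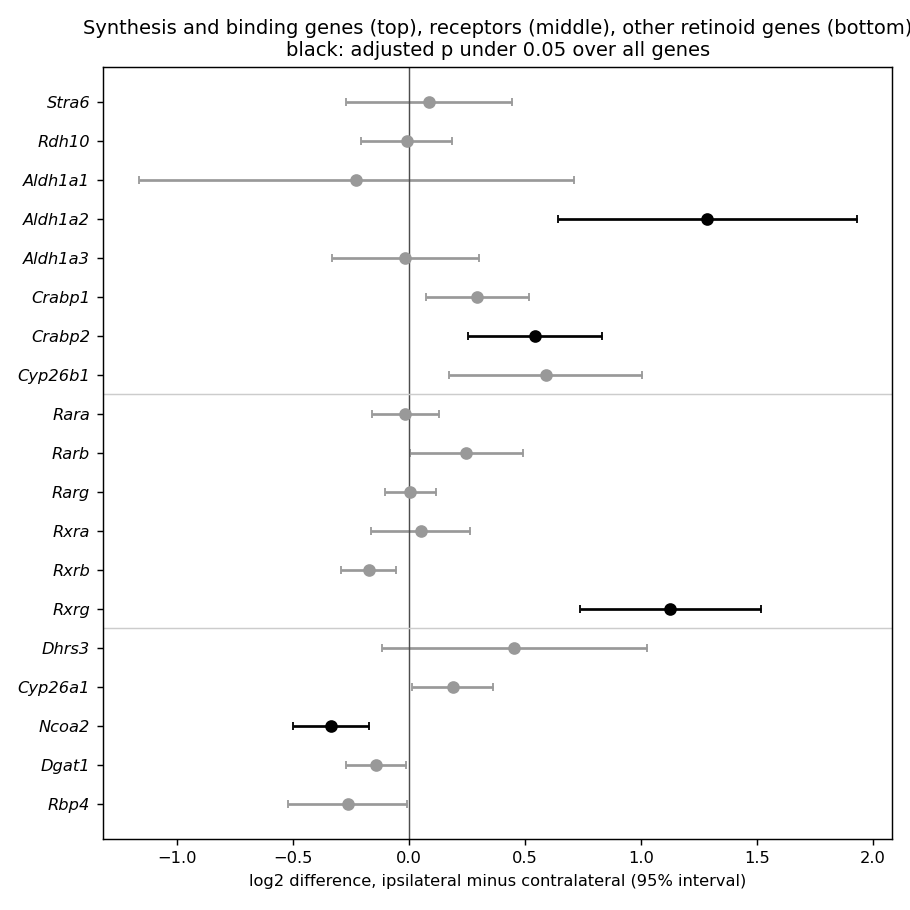
Log2 difference, ipsilateral minus contralateral, with its 95% interval for the 8 genes (top), the retinoid receptors (middle) and 5 other retinoid genes (bottom), in black where the adjusted p was under 0.05 over all genes. Aldh1a2 (1.29), Crabp2 (0.54), Rxrg (1.13) and Ncoa2 (-0.34) are drawn in black.

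Taken as a count, 2 of the 8 genes were called higher and 0 lower, 1 had groups that did not overlap, and the median difference was 0.19, against the 1.22%, 4.33% and 2.04% and the median of 0.02 over all genes. With 8 genes, each call weighs heavily in such a share, and the 8 were chosen with earlier results of these data known. The count of called genes was 0 without contralateral replicate 1, 2, 3 or 5.

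Among the receptors, Rxrg rose and the others did not pass. Rxrg encodes RXR gamma, a partner of the retinoic acid receptors, and its promoter stretch with a single hexamer is printed above. It stood at 6.40, 6.38, 6.93, 6.50 and 6.29 ipsilaterally and at 5.22, 5.10, 5.34, 6.01 and 5.20 contralaterally. The groups did not overlap, and contralateral replicate 4 lay nearest to the ipsilateral side. The log2 difference was 1.13 ± 0.18 (interval 0.74 to 1.52, 2.18-fold, adjusted p = 0.00518 in limma). It passed in all 21 alternatives tried, with differences from 1.02 to 1.29 and adjusted p from 0.000597 to 0.0267.

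Rxrg also ranked the arrays of each side in the same order as the mean of the striatal projection neuron genes. Some steps of that order were small. Contralateral replicates 5 and 1 stood at 5.20 and 5.22 in Rxrg, and contralateral replicates 2 and 5 at 6.94 and 6.95 in the striatal mean. Of the 8 striatal genes listed 6 were measured, 5 had positive differences, the median difference was 0.46 and 0 were called. Penk (1.22, adjusted p = 0.0589 in limma) and Drd2 (0.84, adjusted p = 0.157) had the strongest statistics, and Ppp1r1b had the negative difference (-0.02). The mean of the measured genes ran from 7.18 to 8.49 ipsilaterally and from 6.94 to 7.28 contralaterally. Of these genes Drd2 had contralateral values of 4.39 to 5.07, with 2 arrays below every array's median. The neocortical glutamatergic list moved the other way, with 4 of 7 measured genes called lower, means of 10.57 to 10.86 against 11.43 to 11.81, and no gene below the array medians. Cyp26b1 did not share the order of the striatal list on either side. Ipsilateral replicates 3 and 4 were the highest 2 of both, while contralateral replicate 2 was highest in Cyp26b1 (5.89) and lowest in the list (6.94). The part of striatal tissue in these values was not tested.

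**Figure D3:**
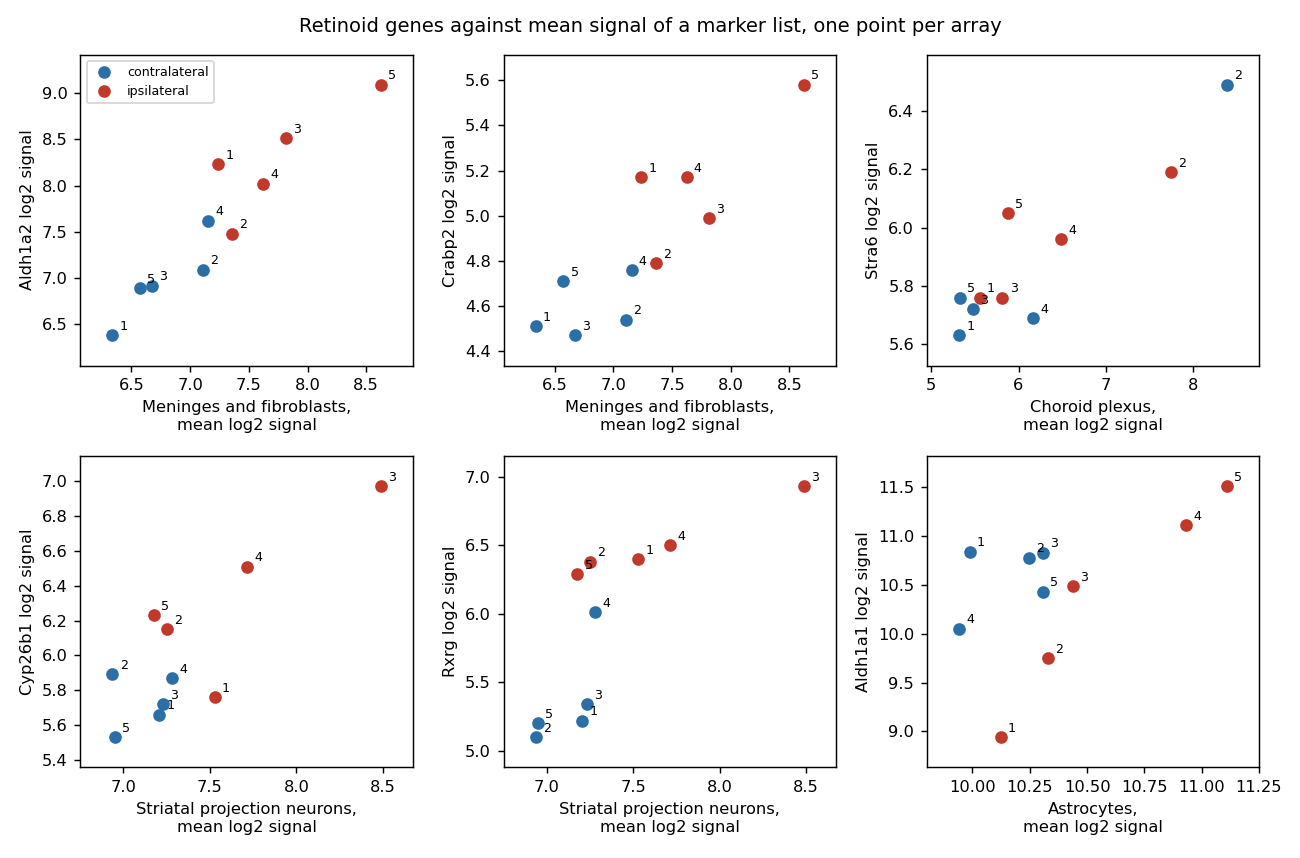
Log2 signal of Aldh1a2, Crabp2, Stra6, Cyp26b1, Rxrg and Aldh1a1 (vertical axes) against the mean log2 signal of a marker list (horizontal axes), 1 point per array with its replicate number, contralateral in blue and ipsilateral in red. Both Aldh1a2 and the meningeal and fibroblast mean are highest on ipsilateral replicate 5, Stra6 and the choroid plexus mean are highest on array 2 of each side, and Rxrg follows the order of the striatal mean within each side but stands higher ipsilaterally.

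Rarb, the receptor gene whose promoter holds the response element shown above, stood at 6.65, 6.38, 6.93, 6.42 and 6.32 ipsilaterally and at 6.23, 6.23, 6.30, 6.40 and 6.30 contralaterally. Its log2 difference of 0.25 ± 0.11 did not pass (adjusted p = 0.223 in limma), and ipsilateral replicate 3 was highest, as for Rxrg. Rxrb had every ipsilateral array below every contralateral one, as 5.21% of all genes did. Its difference of -0.17 did not pass (adjusted p = 0.0934), but did with median scaling (-0.24, 0.0136) and quantile scaling (-0.25, 0.0293). Rara (-0.02), Rarg (0.01) and Rxra (0.05) had adjusted p from 0.816 to 0.964.

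The cofactors had lower means throughout. Ncoa2, a coactivator of nuclear receptors, fell by 0.34 on the log2 scale, from 9.77 ± 0.05 to 9.44 ± 0.15 (SD, n = 5 each, adjusted p = 0.0254 in limma). All 5 ipsilateral arrays (9.24 to 9.63) lay below all contralateral ones (9.70 to 9.82). Among the settings that ended the call were any of 6 arrays left out (ipsilateral 2 or 5 or contralateral 1, 2, 3 or 4, adjusted p = 0.0526 to 0.0708), every row tested (0.0501) and the arrays numbered 2 and 4 left out (0.263). Nrip1, a corepressor, had a difference of -0.14 (adjusted p = 0.195), and passed with median scaling (0.0428). Of 6 cofactors listed 4 were measured, and all 4 had negative differences with a median of -0.15.

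The remaining pathway genes gave no call. Of 7 measured carrier and storage genes 3 had positive differences, with Dgat1, which esterifies retinol among other lipids, at -0.14 (adjusted p = 0.194, but 0.0328 with median and 0.0460 with quantile scaling) and the blood carrier gene Rbp4 at -0.26 (adjusted p = 0.219). The carotenoid cleavage genes Bco1 and Bco2 stood at 0.01 and 0.19. Of 14 measured retinol and retinaldehyde oxidoreductases 11 had positive differences with a median of 0.13, led in their statistics by Adh7 (0.25, adjusted p = 0.0998) and Adh1 (0.27, adjusted p = 0.175). For 6 of these 14, both Adh genes included, the mean signal lay below every array's median. Fabp5, an alternative carrier of retinoic acid, had a difference of 0.03.

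Textbook targets of retinoic acid were read for a change in the pathway's output. Of 11 listed 9 were measured, 8 had positive differences, the median was 0.16 and 0 were called, while 56.1% of all genes had positive differences and 6420 reached an unadjusted p under 0.05. For 4 of the 9 (Cyp26a1, Lrat, Hoxb1 and Stra8) the mean over 10 arrays lay below every array's median, and 3 of these 4 are among the positive differences, Hoxb1 at 0.04 and Stra8 at 0.03. Cyp26a1, a sensitive target with the response element shown above, stood at 3.95 to 4.37 ipsilaterally and 3.91 to 3.99 contralaterally (difference 0.19, adjusted p = 0.203 in limma). All 10 of its values lay below every array's median, so it was not shown to be above background on any array. In all, 28 of the 41 measured pathway genes outside the 8 had positive differences, with a median of 0.06, and 1 was called higher and 1 lower, where 1.22% and 4.33% of all genes were. With 41 genes, 1 call each way is too few to set these shares apart from those of all genes. The other 7 listed genes were not analysed here.

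The array-to-array pattern of the 8 genes was also compared after each side's mean was removed, as a description over 10 arrays with no test. Among their 28 pairs, the closest were Stra6 with Rdh10 (Pearson r = 0.843, Spearman rho = 0.732, and r = 0.763 without the 2 arrays farthest out in Stra6) and Aldh1a2 with Crabp2 (0.781, 0.535 and 0.357 without the 2 farthest in Aldh1a2). The second was weaker without those 2 arrays. The most opposed were Aldh1a3 with Cyp26b1 (-0.818, -0.505 and -0.231 without the 2 farthest in Aldh1a3), likewise weaker without them. Leaving out the farthest arrays narrows the range and can itself lower r, so how far either pair rests on them cannot be told.

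Beyond the 8 genes, the 3 most similar patterns were picked for each from the named genes at or above the median mean signal (11766 or 11767 candidates). They are the highest r values of that search, given with no test. For Aldh1a2 they were Slc6a13 (r = 0.983), a transporter gene of the meningeal list (difference 1.24, adjusted p = 0.0639 in limma), Smoc1 (0.967), a matrix gene that itself rose (1.34, adjusted p = 0.00896), and Ptgds (0.943), the prostaglandin D synthase of meninges and choroid plexus (1.14, adjusted p = 0.0672). For Stra6 they were Slc4a2 (0.976), an anion exchanger, Sostdc1 (0.959), a gene of the choroid plexus list, and Sgms2 (0.955). For Aldh1a1 they were Daam2 (0.975), Serpinb1a (0.971) and Gng12 (0.966), and for Rdh10 Mospd1 (0.933), Cd55 (0.927) and Nt5dc1 (0.923).
For Aldh1a3 they were Sema6c (0.986), Ankrd29 (0.978) and Ado (0.971), and for Crabp1 Prcd (0.952), Pmm2 (0.911) and Hmgcll1 (0.880). Those of Crabp2 were Washc3 (0.917), Fam114a1 (0.915) and Tsg101 (0.912), and those of Cyp26b1 were Ntan1 (0.949), Erlin1 (0.941) and Ptrhd1 (0.930).

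**Figure D4:**
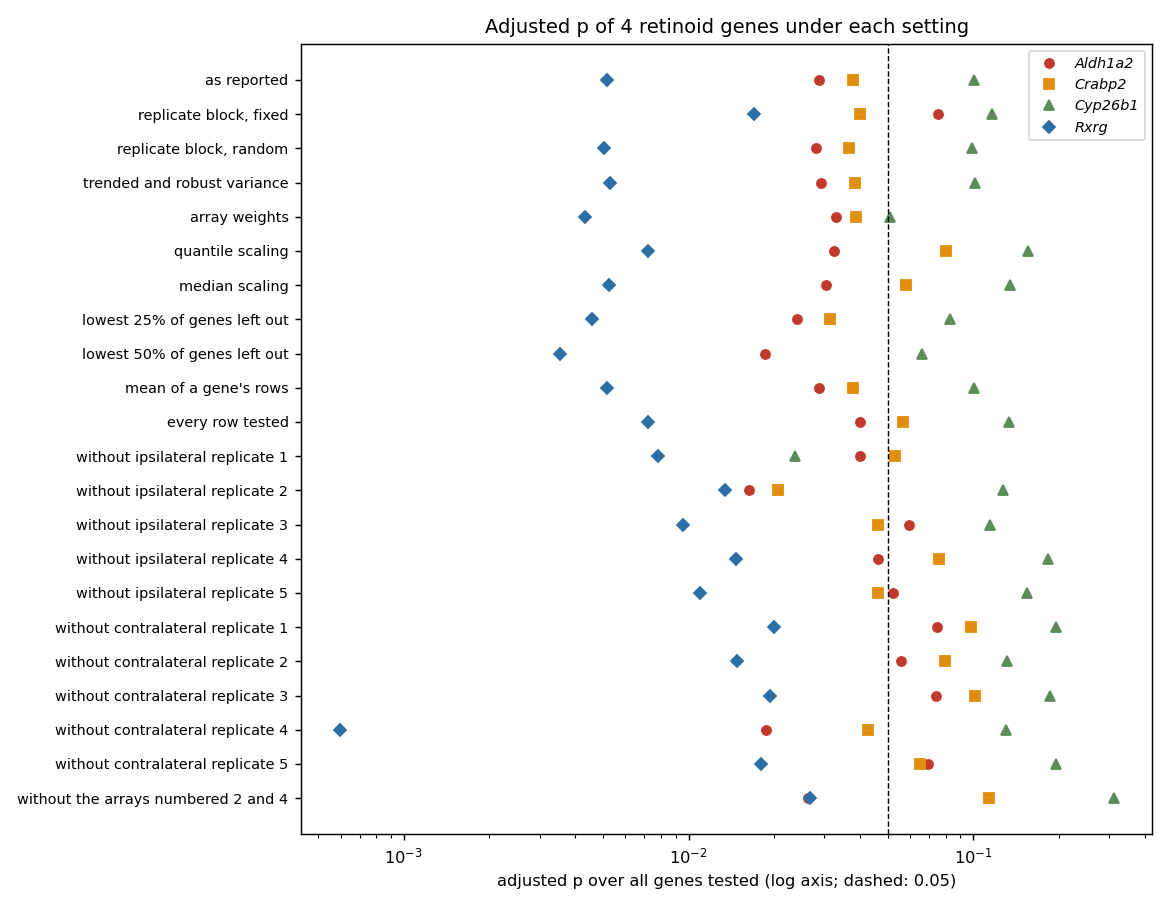
Adjusted p over all genes tested (horizontal, log axis, dashed line at 0.05) for Aldh1a2, Crabp2, Cyp26b1 and Rxrg as reported and under each alternative (vertical). Rxrg stays left of the line in every setting drawn, Aldh1a2 crosses it with the fixed block and when some single arrays are left out, Crabp2 with either scaling, every row tested, some single arrays or the arrays numbered 2 and 4 left out (it has no point where the dimmer 50% of genes were left out), and Cyp26b1 lies left of it only without ipsilateral replicate 1.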

How the data were processed

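Per the submitters' processing notes, the authors made the deposited log2 signals with Transcriptome Analysis Console 4.0, and a log2 scale was taken from their range (1.97 to 19.93). How arrays were normalized and summarized, and the genome build, is not given in the sources used here, and the labels name no batch, so none was tested. Of 65956 rows, 30604 named 1 symbol and 33206 were unnamed here. Symbols were updated by Entrez identifier from RefSeq GRCm38.p6 (827 changed). For genes with several such rows the brightest by 10-array mean was kept, which left 30142 genes. All genes were fitted with limma 3.58.1 (R 4.3.3, statmod 1.5.0) by lmFit and eBayes without covariates, two-sided, with Benjamini-Hochberg adjustment and a threshold of 0.05. On simulated arrays with 30142 genes, of which 200 were changed, the same fit of this comparison found 46.3% of the genes given a log2 change of 0.5. It found 95.5% at a change of 1 and 97.0% at a change of 2, with 12 false calls. Each gene had independent normal noise with the same spread on both sides. Noise shared between genes and any difference in spread between sides were not simulated, so these shares need not hold for the real arrays. The number of arrays, 5 a side, limits the precision. The limma p-values set the difference between sides against the spread within sides, with all arrays taken as independent. Whether the sides share mice is not known.

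The 8 genes and all lists were chosen with earlier results of these data known. Named genes were the 8, called pathway genes, the 2 with the strongest statistics in each pathway list, Rarb, Rxrg and Ttr, and 3 genes of similar pattern for each of the 8. In marker lists described, the 2 with the strongest statistics were also planned, but they were not named for every list. The response element types, TATAAA and CCAAT, the olfactory bulb genes, Snap25, Aqp4 and other genes named beside a result were added after values were seen. Alternatives were the replicate number as a fixed or random block, trended and robust variance, array weights, quantile and median scaling, 2 filters on dim genes, averaged rows per gene, a test of all rows, each array left out, and an exact permutation test. Leaving out the arrays numbered 2 and 4 was added after seeing the data.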

Additional observations from a re-analysis of the deposited data

Results flagged for a closer look

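Of 46 groups of 5 arrays examined, 6 held an array whose distance from its nearest neighbour was large for the range of its group, where chance gives about 1 in 20. Stra6 stood at 6.49 on contralateral replicate 2, the array with the highest choroid plexus mean. Aldh1a3 stood at 5.75 on ipsilateral replicate 1, the array with high Th and Eomes. Rxrg stood at 6.01 on contralateral replicate 4, where the striatal mean was the highest of its side, and without it the difference of Rxrg was 1.29 (adjusted p = 0.000597 in limma). Rxrb was lowest of its side on the same array, at 6.47. Bco1 was highest of its side on contralateral replicate 2, at 4.69, below every array's median. Nrip1 was highest of its side on contralateral replicate 3, at 7.51.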

How the results depend on the processing

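Over all genes, 369 were higher and 1305 lower as reported. They were 177 and 769 with the replicate block as a fixed term, 656 higher with array weights, 232 and 2623 with median scaling, and 77 and 289 without the arrays numbered 2 and 4. With single arrays left out they ranged from 111 to 760 and from 740 to 1607. Of the 8 genes, 2 were called higher as reported and 1 with the fixed replicate block (Aldh1a2 lost, adjusted p = 0.0749), quantile or median scaling, every row tested, the dimmer 50% of genes left out (Crabp2 then not tested) or the arrays numbered 2 and 4 left out, and 0 to 2 with single arrays left out. Of the other pathway genes, 1 to 2 were higher and 0 to 1 lower with single arrays left out, and 0 were lower with the fixed replicate block (Ncoa2 lost, adjusted p = 0.0760), every row tested or without the arrays numbered 2 and 4, 3 with quantile and 4 with median scaling. The cause of these changes was not tested.

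Same-numbered arrays deviated together at r = -0.399 to 0.259, over 0.1 in 2 of 5 pairs, and 1 of 5 ipsilateral arrays correlated best with its own number. Ttr, in contrast, was high on the arrays numbered 2 and 4 of both sides. No mouse was named for any array, so these values cannot show whether equal numbers share a mouse. The main fit did not take the numbers to pair the samples, and counts with the fixed replicate block are given above. Signs turned only for differences that were not called. Rdh10 was 0.018 with array weights and 0.020 without the arrays numbered 2 and 4. Bco1 was -0.052 with quantile scaling, -0.058 with median scaling and -0.050 without those arrays, Cyp26c1 -0.044 (median) and -0.017 (without them), and Fabp5 -0.0059 (quantile), -0.040 (median) and -0.247 (without them). Ttr was 0.882 with array weights. With single arrays left out the ranges were -0.054 to 0.054 (Rdh10), -0.514 to 0.129 (Aldh1a1), -0.160 to 0.063 (Aldh1a3), -0.018 to 0.042 (Bco1), -0.105 to 0.131 (Fabp5) and -2.03 to 1.08 (Ttr). Signal near or below the array medians limits Crabp1, Crabp2, Aldh1a3 and Cyp26a1.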

Other observations

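Dhrs3, which reduces retinaldehyde back to retinol and is a known retinoic acid target, spread widely on the injured side alone. It stood at 7.58, 8.29, 8.35, 9.11 and 9.15 ipsilaterally and at 8.04, 8.16, 8.03, 8.03 and 7.95 contralaterally. Thus 4 ipsilateral arrays lay above and 1 below every contralateral array, the SDs were 0.65 and 0.08, and the log2 difference of 0.45 did not pass (adjusted p = 0.350 in limma). Its ipsilateral arrays fell in the same order as those of Aldh1a1 and of the astrocyte mean, and its contralateral arrays did not share the order of that mean.

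Rdh5, a retinol dehydrogenase, stood at 6.17 and 6.31 on replicate 2 of the ipsilateral and contralateral sides, and between 4.67 and 5.35 on the other 8 arrays. Like Stra6 it was highest on the array of each side with the highest choroid plexus mean. Its log2 difference between sides was 0.23 (adjusted p = 0.732 in limma).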
